A study of Mus musculus with 9 samples.

Results

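The genes of protein processing in the endoplasmic reticulum (ER) were examined in RNA-seq data from RAW264.7 cells, a mouse macrophage line transformed by a leukemia virus that can be driven toward osteoclasts, the bone-resorbing cells. Members were the genes of the deposited table whose pathway annotation holds the KEGG map for this process, less 8 genes set aside by name (Atf4, Ddit3, Ppp1r15a, Ero1a, Bcl2, Bax, Bak1 and Eif2ak2). This left 297 of the 56691 genes in the table. Of these, 155 were placed by their known roles in 8 classes, and the other 142 stayed unclassified, 124 of them annotated pseudogenes. The 3 groups were control cells without added agent, cells given RANKL, the cytokine that induces osteoclast differentiation, and cells given RANKL together with uridine, abbreviated UD (RANKL + UD). The dose of RANKL in the methods is 50 ng/mL, and cells were taken for RNA at 3 days. The sources used here do not give the UD dose for these libraries. Each group held 3 libraries from a single cell line.

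Proteins that are secreted, placed in membranes or sent to lysosomes enter the ER through the Sec61 translocon, receive glycans from the oligosaccharyltransferase and fold with the help of luminal chaperones, disulfide isomerases and a lectin cycle. Correctly folded proteins leave in COPII-coated vesicles, and misfolded ones are drawn back to the cytosol and degraded, a route called ER-associated degradation (ERAD). The sensors IRE1 (gene Ern1), PERK (Eif2ak3) and ATF6 report an excess of unfolded protein and adjust the genes of the other classes, the unfolded protein response. Osteoclasts secrete acid and large amounts of the proteases that digest bone, so this route carries much of their output.

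The libraries held 15951800 to 19746862 counted reads, and replicates within a group differed by more than counting noise. Osteoclast marker genes moved with the groups: Ctsk, the main bone-matrix protease, was at 7.85 to 8.74 FPKM (fragments per kilobase of gene, scaled to the library total) in control, 1443 to 1573 in RANKL and 854 to 897 in RANKL + UD. All 8 osteoclast markers examined were higher in every RANKL library than in any control library and lower in RANKL + UD than in RANKL. Of these, Calcr was near the floor, at 0 FPKM in control, 0.17 to 0.49 in RANKL and 0 to 0.09 in RANKL + UD. Of the 8 macrophage markers, 7 (all but Cd68) were lower in RANKL than in control. With UD 6 of the 8 macrophage markers were lower than in RANKL in every library (Csf1r, Cd68, Itgam, Ptprc, Lyz2 and Cd14), Fcgr1 overlapped with RANKL, and Adgre1 was higher. Cd68 was higher in RANKL than in control and stayed above control with UD. All 12 T cell, B cell, fibroblast, osteoblast and epithelial markers examined stayed at or below 0.34 FPKM in every library. At these low levels Col1a2, Alpl and Epcam were higher in every RANKL library than in any control library, and Cd79a was lower. In these bulk samples a change in the share of cells that became osteoclasts and a change in the RNA of each cell cannot be told apart. The part of the marker shift in the results that follow was not tested.

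A member was tested when it reached 1 FPKM in at least 3 libraries, which 160 of the 297 did (135 of the 155 classified members and 25 of the 142 unclassified ones). Differences were tested with edgeR's quasi-likelihood test over all 11995 genes that passed this filter, and a gene was called at an adjusted p under 0.05. Log2 fold changes are of counts relative to library sizes after TMM scaling, which multiplies each size by a factor set from the bulk of genes. Where leaving out 1 library ended or made a call whose value is given, that library is named with the adjusted p without it in parentheses. Values after ± beside a log2 fold change are its standard error. FPKM values use the unscaled library total, so ratios of printed FPKM differ from the tested fold changes. Without TMM the median log2 fold change of all genes moved from 0.005 to 0.091 for RANKL + UD against RANKL. For RANKL against control it moved from -0.027 to -0.115. Of the 160, 5 would have missed the filter without the libraries of a single group: Hspa1l without RANKL + UD, Svip without control, Tmem116 without RANKL, Wfs1 without either control or RANKL, and Gm7816 without either RANKL or RANKL + UD. Calls of these genes that involve such a group are descriptions only, and the counts of members called still include them. The 20 classified members that did not pass were at or near 0, with the highest single value at 0.69 FPKM (Hspa2, a testis-enriched heat shock protein). Among them were Derl3, an ERAD channel protein of secretory cells, at 0.00 to 0.09 FPKM, and the inducible heat shock gene Hspa1a, at 0.00 to 0.07 FPKM.

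RANKL raised more of these genes than it lowered. In RANKL against control, 77 of the 160 tested members were higher and 21 lower, or 48.1% and 13.1%, where 27.3% of all tested genes were higher and 30.2% lower. The median log2 fold change of the members was 0.18, and that of all tested genes was -0.027. In RANKL + UD against RANKL, 18 members were higher and 35 lower (11.2% and 21.9%), beside 18.6% and 20.2% of all tested genes, with a median of -0.05. In RANKL + UD against control, 70 were higher and 28 lower (43.8% and 17.5%), beside 26.7% and 27.3%, with a median of 0.13. The 3 libraries of one group lay entirely above or below those of the other for 96, 92 and 102 of the 160 members in these comparisons, beside 61.7%, 51.7% and 59.9% of all tested genes. The comparisons share libraries, so their counts are not independent of each other.

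The balance of calls between RANKL + UD and RANKL depended on the scaling of the libraries. Scaled to total counts without TMM, 41 members were higher and 25 lower, so higher calls made up 62.1% of all calls in place of 34.0%. This scaling shifted the median of all genes in that comparison from 0.005 to 0.091 on the log2 scale. In RANKL against control the same change gave 62 higher and 31 lower (66.7% higher in place of 78.6%). With total counts, 10 members lost the call of being lower with UD (Ube2g1, Wfs1, Dnaja2, Sil1, Rpn1, Stt3a, Xbp1, Rrbp1, Jmjd8 and Tram2), and 23 were newly called higher, among them Canx, Uggt1, Hsp90b1, Pdia3, Pdia6, Hspa8, Hspa4l and Sec61b. In RANKL against control, 15 members lost the call of being higher, among them Dnajc3, Pdia3, Pdia4, Dad1 and Ssr1, and 10 were newly called lower, among them Sel1l, Sil1, Atf6 and Atf6b. By class, this scaling changed the higher and lower calls with RANKL from 9 and 1 to 6 and 3 among luminal chaperones, from 8 and 1 to 5 and 2 in COPII export, from 21 and 3 to 18 and 5 in ERAD, and from 6 and 4 to 5 and 5 in the lectin cycle. It also ended the higher calls of Dad1 in the oligosaccharyltransferase, Ssr1 in the translocon class, and Bag1 and Dnajc5 among cytosolic chaperones. New lower calls were made for Ddost in the oligosaccharyltransferase and Ckap4 in the translocon class. The UD calls of Jmjd8 and Tram2 were also lost without single libraries, Jmjd8 without RANKL + UD replicate 3 (0.136), RANKL replicate 1 (0.0696) or RANKL replicate 3 (0.0656) and Tram2 without RANKL + UD replicate 1 (0.0576), RANKL + UD replicate 2 (0.0751), RANKL + UD replicate 3 (0.0775), RANKL replicate 1 (0.0586) or RANKL replicate 2 (0.0925). Of the 35 members lower with UD, 23 were called lower in all 14 alternative analyses, as were 12 of the 18 higher ones in their direction. Of the 77 members raised by RANKL 56 kept the call in all 14, and of the 21 lowered members 18 did.

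**Figure D1:**
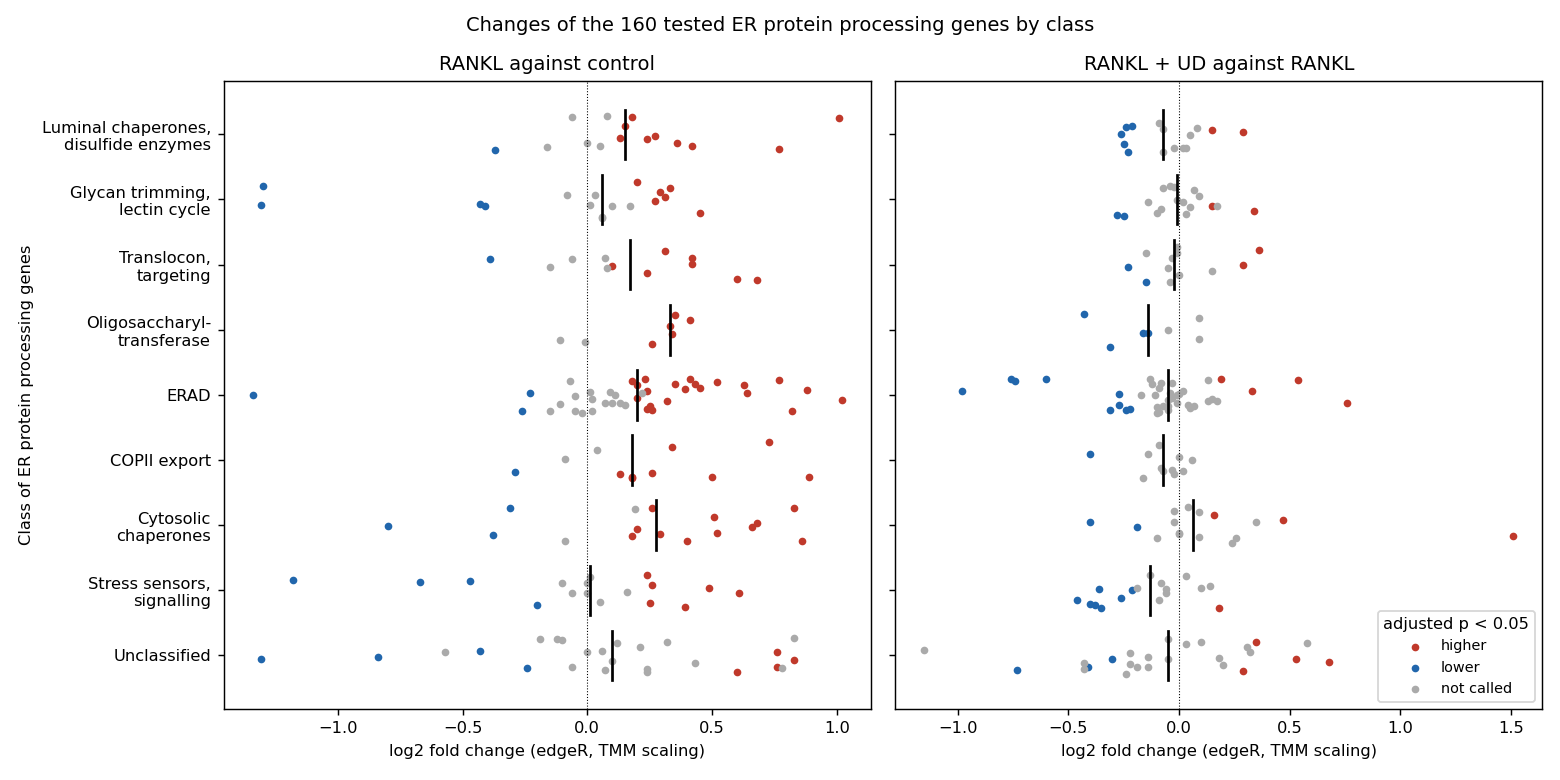
Log2 fold change of each tested member (points) by class in RANKL against control (left) and RANKL + UD against RANKL (right), TMM scaling; color gives the edgeR call at adjusted p under 0.05 and the black bar is the class median. With RANKL most classes lie to the right of 0, with medians from 0.01 in the stress sensors to 0.33 in the oligosaccharyltransferase, and with UD the medians lie between -0.14 and 0.07.

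The luminal chaperones and disulfide enzymes were all expressed. Of the 15, 9 (60%) rose with RANKL and 1 (6.67%) fell, beside 27.3% and 30.2% of all tested genes. Hspa5 encodes BiP, the central Hsp70 chaperone of the ER lumen. Its level was 302, 301 and 321 FPKM in control, 497, 492 and 491 in RANKL and 443, 442 and 445 in RANKL + UD. All 3 RANKL libraries were above all control libraries, and the RANKL + UD libraries lay between the 2 groups. The difference was 0.77 ± 0.043 on the log2 scale for RANKL against control (adjusted p = 1.62e-12) and -0.24 ± 0.042 for RANKL + UD against RANKL (adjusted p = 0.000128). RANKL + UD stayed above control by 0.53.

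P4hb, a protein disulfide isomerase and also a subunit of collagen prolyl hydroxylase, had the largest rise of the class. It measured 412, 434 and 464 FPKM in control, 805, 832 and 848 in RANKL and 699.5, 759.5 and 784 in RANKL + UD. No control library came near the others. The log2 fold change with RANKL was 1.01 ± 0.051 (adjusted p = 3.18e-13), and with UD against RANKL it was -0.23 ± 0.050 (adjusted p = 0.000909), a difference that was not called by limma on log2 FPKM (highest adjusted p 0.0662).

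The other abundant folding proteins moved much less. Hsp90b1, the ER form of Hsp90 (GRP94), was at 380.3, 383 and 377 FPKM in control, 429, 411 and 425 in RANKL and 450.2, 464 and 458 in RANKL + UD. It rose with RANKL by 0.24 ± 0.041 (adjusted p = 4.52e-05) and differed by 0.03 between RANKL + UD and RANKL (adjusted p = 0.599), which total-count scaling turned into a call of 0.12 (adjusted p = 0.0278). Pdia3, the disulfide isomerase that works with the lectins, rose with RANKL by 0.13, Pdia4 by 0.18, and the nucleotide exchange factor Hyou1 by 0.27. The calls of Pdia3 and Pdia4 were lost with total-count scaling, where their differences from control were 0.05 and 0.09, and that of Pdia3 also without control replicate 1 (0.0686) or control replicate 2 (0.0828). Dnajb11 and Pdia6, a BiP cochaperone and a further disulfide isomerase, showed no called difference with RANKL, at 0.05 and 0.08.

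Txndc5, a thioredoxin-domain oxidoreductase, went the other way. It was at 32.4, 31.6 and 36.7 FPKM in control, 22.97, 25.2 and 25.03 in RANKL and 30.6, 32.3 and 32.4 in RANKL + UD. The RANKL libraries were the lowest of the 9, and the RANKL + UD libraries overlapped with control. It fell by 0.37 ± 0.059 with RANKL (adjusted p = 1.54e-05) and was higher with UD by 0.29 ± 0.059 (adjusted p = 0.000448). In the class 5 members (33.3%) were lower in RANKL + UD than in RANKL and 2 (13.3%) higher, beside 20.2% and 18.6% of all tested genes, and this balance turned with the scaling, to 4 lower and 5 higher with total counts and 2 lower and 6 higher with limma on log2 FPKM. The higher ones were Txndc5 and Dnajc10, a disulfide reductase (0.15; not called without RANKL + UD replicate 2 (0.118) or RANKL replicate 1 (0.0696)). The lower ones were Hspa5, P4hb, the BiP cochaperone Dnajc1 (-0.25), the BiP exchange factor Sil1 (-0.26) and the oxidase Ero1b (-0.21). The call of Sil1 was lost with total-count scaling (adjusted p = 0.132, range over the alternatives 0.0139 to 0.132) and also without RANKL + UD replicate 2 (0.115), RANKL + UD replicate 3 (0.111), RANKL replicate 2 (0.0895) or RANKL replicate 3 (0.0643).

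**Figure D2:**
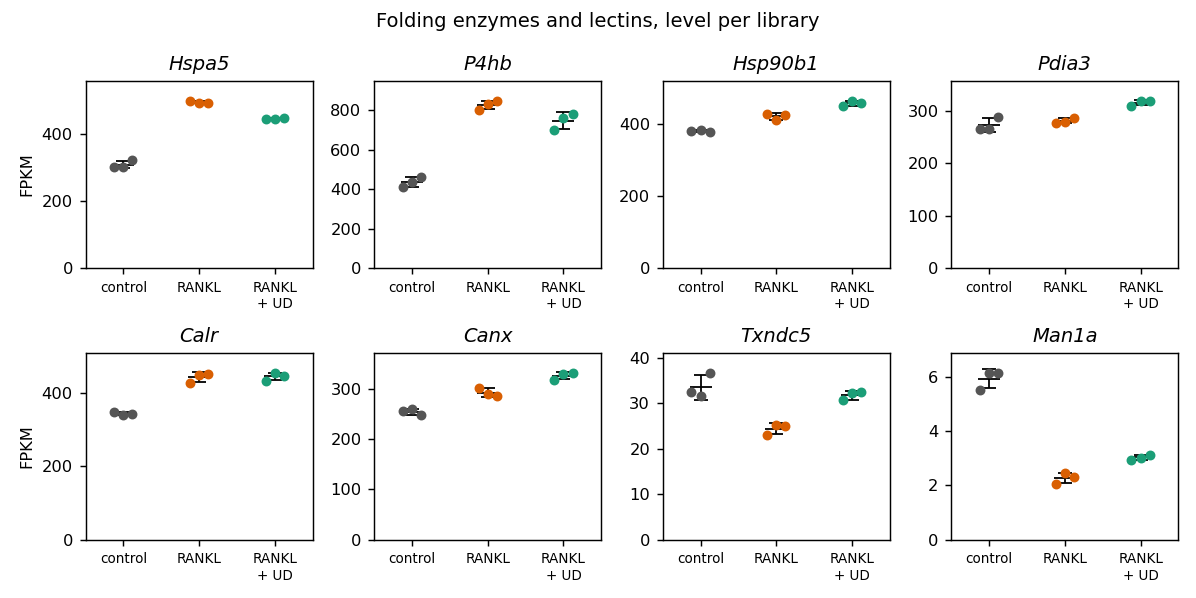
FPKM per library of 8 folding enzymes and lectins in control, RANKL and RANKL + UD; points are the 3 libraries of a group, and the bar with whiskers is the mean with its SD. Hspa5 and P4hb rise well clear of control with RANKL, Hsp90b1, Calr and Canx rise by less, the Pdia3 libraries of control and RANKL overlap, and Txndc5 and Man1a are lowest in RANKL.

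The promoters of several of these genes are shown because they carry the motif through which the unfolded protein response is known to act. The ER stress element (ERSE), which is CCAAT, then 9 free bases, then CCACG, was searched on both strands in RefSeq promoter windows (GRCm38.p6, 250 bases before to 50 after a start) of the 141 members with a window. It was found in 10 members (7.09%) and in 37 of 27025 genes overall (0.137%; 0.119% of windows). ERSE-II, which is ATTGG, then 1 free base, then CCACG, was found in 2 members, Herpud1 and Dnajb11 (1.42%), and in 0.0444% of genes. Both motifs end in CCACG. The 250 bases before the start are printed 5′ to 3′ on the strand of the gene, with the ERSE of Hspa5, Hsp90b1 (matched on both strands), Calr and Ero1b, and the ERSE-II of Herpud1, in capitals; a capital stretch that begins with CGTGG is a match on the reverse strand.
Hspa5 (chr2:34771840-34772089, plus strand): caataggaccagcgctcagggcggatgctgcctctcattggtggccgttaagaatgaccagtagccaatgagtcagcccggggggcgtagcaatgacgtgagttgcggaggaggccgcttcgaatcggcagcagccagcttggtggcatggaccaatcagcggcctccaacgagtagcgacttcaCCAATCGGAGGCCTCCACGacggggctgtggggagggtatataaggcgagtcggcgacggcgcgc
Hsp90b1 (chr10:86705445-86705694, minus strand): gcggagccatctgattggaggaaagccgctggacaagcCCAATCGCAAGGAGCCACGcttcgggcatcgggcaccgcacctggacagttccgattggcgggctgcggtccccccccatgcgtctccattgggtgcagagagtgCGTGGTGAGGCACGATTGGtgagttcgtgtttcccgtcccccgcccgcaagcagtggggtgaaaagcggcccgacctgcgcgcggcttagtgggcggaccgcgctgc
Calr (chr8:84846932-84847181, minus strand): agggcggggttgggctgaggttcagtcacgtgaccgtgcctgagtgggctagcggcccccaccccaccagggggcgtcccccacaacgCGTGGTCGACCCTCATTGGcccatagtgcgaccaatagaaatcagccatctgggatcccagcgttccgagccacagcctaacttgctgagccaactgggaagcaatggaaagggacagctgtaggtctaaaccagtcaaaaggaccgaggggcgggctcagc
Ero1b (chr13:12565633-12565882, plus strand): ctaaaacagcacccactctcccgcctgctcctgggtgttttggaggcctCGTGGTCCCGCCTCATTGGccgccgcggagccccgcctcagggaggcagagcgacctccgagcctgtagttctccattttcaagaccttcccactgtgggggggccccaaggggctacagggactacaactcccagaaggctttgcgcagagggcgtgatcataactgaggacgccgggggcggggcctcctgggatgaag
Herpud1 (chr8:94386179-94386428, plus strand): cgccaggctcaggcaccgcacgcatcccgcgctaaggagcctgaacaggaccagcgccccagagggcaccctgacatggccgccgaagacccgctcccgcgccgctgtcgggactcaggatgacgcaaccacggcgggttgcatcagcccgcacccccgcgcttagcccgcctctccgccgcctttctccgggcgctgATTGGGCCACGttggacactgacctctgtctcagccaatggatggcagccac

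The genes with these motifs did not move as one. Of the 8 tested members with an ERSE, 6 were higher with RANKL and none lower, beside 27.3% and 30.2% of all tested genes. Their log2 differences ran from -0.00 for Ero1b to 0.77 for Hspa5. The other 6 were Syvn1 (0.41), Calr (0.45), Canx (0.29), Hsp90b1 (0.24), Dnajc3 (0.15; not called without RANKL replicate 2 (0.058)) and Pdia6 (0.08). With UD, 2 of the 8 were lower than in RANKL, Hspa5 and Ero1b, and none was higher, beside 20.2% and 18.6% of all tested genes. Of the ERSE-II genes, Herpud1 was at 0.82 with RANKL and -0.74 with UD, and Dnajb11 at 0.05 and 0.02. A further motif of this response, UPRE (TGACGTGG, which shares CGTGG with the reversed ERSE), was in 6 members (4.26%; 0.714% of genes), all tested. Of those, 5 rose with RANKL (Sec23a, Sec24d, Ube2j1, Vcp and Mapk8) and Txndc5 fell, beside 27.3% and 30.2% of all tested genes. A match describes letters in a window and is not evidence of binding.

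In the lectin cycle, Calr and Canx hold glycoproteins until they fold. With RANKL 6 of 17 tested members of this class (35.3%) rose and 4 (23.5%) fell, near the 27.3% and 30.2% of all tested genes. Calr was at 348, 341 and 342 FPKM in control, 426, 447 and 452 in RANKL and 433, 455 and 445 in RANKL + UD. The control libraries were the lowest, and the RANKL and RANKL + UD libraries overlapped. Its log2 difference was 0.45 ± 0.043 with RANKL (adjusted p = 1.14e-08) and -0.08 with UD (adjusted p = 0.168), and Canx differed by 0.29 and 0.07. Of the Man1 mannosidases, which trim glycans, Man1c1 and Man1a fell with RANKL, while Man1a2 and Man1b1 were at -0.08 and 0.06. Total-count scaling called Man1a2 lower with RANKL. Man1c1 was at 16, 16.1 and 17.8 FPKM in control, 6.34, 6.71 and 5.92 in RANKL and 6.87, 6.45 and 6.55 in RANKL + UD. Man1a was at 5.51, 6.14 and 6.13 FPKM in control, 2.06, 2.45 and 2.29 in RANKL and 2.95, 3.02 and 3.13 in RANKL + UD. In both genes the control libraries were the highest, with log2 differences of -1.31 and -1.30, and only Man1a was called higher with UD (0.34 ± 0.084, adjusted p = 0.00328).

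Uggt1, the glucosyltransferase that sends unfolded glycoproteins back to the lectins, fell by 0.43 ± 0.051 with RANKL, and Mogs, the first glucosidase of the cycle, fell by 0.41. Edem1, a lectin-like mannosidase that marks misfolded glycoproteins for ERAD, was at 89.6, 90.2 and 94.03 FPKM in control, 107, 109 and 104 in RANKL and 93.1, 94.2 and 92.4 in RANKL + UD. The RANKL libraries stood above all others, and RANKL + UD overlapped with control. Edem1 rose by 0.31 ± 0.044 with RANKL (adjusted p = 3.1e-06) and was lower with UD, at -0.28 ± 0.044 (adjusted p = 3.06e-05). The difference of RANKL + UD from control was 0.03 (adjusted p = 0.571). Prkcsh, a glucosidase subunit, had nearly the same pair of changes, 0.33 and -0.25.

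In translocation into the ER, 7 of 12 tested members (58.3%) rose with RANKL and 1 (8.33%) fell, beside 27.3% and 30.2% of all tested genes. Total-count scaling ended the call of Ssr1 and called Ckap4 lower, and limma on log2 FPKM gave 5 higher and 2 lower. The 3 subunits of the main channel all rose: Sec61g by 0.68, Sec61b by 0.60 and Sec61a1 by 0.42. Sec61b was at 21.4, 22.5 and 21.4 FPKM in control, 29.2, 32.6 and 31.01 in RANKL and 41.8, 34.1 and 33.5 in RANKL + UD. The FPKM ranges of the 3 groups did not overlap, with RANKL + UD highest, but after TMM scaling UD against RANKL was not called (0.15, adjusted p = 0.171), though total-count scaling gave 0.24 (adjusted p = 0.0288). Sec61g carries the same orthology number as the transcribed pseudogene Gm10177, at 50.8, 38.5 and 49.3 FPKM in RANKL against 19.9, 19.9 and 21.4 for Sec61g itself, so reads may be divided between them. Gm10177 rose with RANKL by 0.83.

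The accessory proteins of the channel divided. Sec63, which recruits BiP to the channel, rose by 0.24, and the translocon-associated proteins Ssr3 and Ssr4 rose by 0.42 and 0.31. Ssr1, of the same complex, was at 32.6, 32.96 and 32.7 FPKM in control, 33.01, 33.1 and 33.3 in RANKL and 43.5, 42.8 and 42.8 in RANKL + UD. The 3 RANKL + UD libraries were above all others, with a log2 difference of 0.29 ± 0.042 from RANKL (adjusted p = 1.47e-05). Sec62, the partner of Sec63, was lower with UD, at -0.23 ± 0.048 (adjusted p = 0.000847). Rrbp1, a ribosome-binding protein of the rough ER, was lower with RANKL (-0.39 ± 0.051) and lower again with UD (-0.15), a call that total-count scaling lost (adjusted p = 0.37, range over the alternatives 0.011 to 0.386). Sec61a2, a second form of the channel's main subunit, was higher with UD by 0.36 ± 0.116; the gene overlaps Nudt5 on the opposite strand. Some of these calls were lost when 1 library was left out: that of Ssr1 with RANKL, at 0.10, without RANKL replicate 1 (0.073), RANKL replicate 2 (0.0861), control replicate 1 (0.0865), control replicate 2 (0.0872) or control replicate 3 (0.0501). That of Rrbp1 with UD was lost without RANKL + UD replicate 2 (0.0785), RANKL + UD replicate 3 (0.162) or RANKL replicate 1 (0.137), and that of Sec61a2 without RANKL replicate 2 (0.0771) or RANKL replicate 3 (0.0796). In the class, 2 of 12 tested members (16.7%) were higher with UD and 2 (16.7%) lower, near the 18.6% and 20.2% of all tested genes. Total-count scaling gave 3 higher and 1 lower.

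The 7 oligosaccharyltransferase genes were all expressed. Of these, 5 (71.4%) rose with RANKL and none fell, beside 27.3% and 30.2% of all tested genes. The catalytic subunits Stt3a and Stt3b rose by 0.41 and 0.34, Tusc3 by 0.35, Dad1 by 0.33 and Rpn1 by 0.26, while Ddost and Rpn2 were not called. The call of Dad1 was lost with total-count scaling and also without control replicate 1 (0.054). Total-count scaling called Ddost lower with RANKL, and limma on log2 FPKM gave 4 higher and 1 lower in the class. Stt3b was at 50.2, 48.95 and 51.6 FPKM in control, 60.03, 59.9 and 59.99 in RANKL and 51.4, 51.9 and 50.9 in RANKL + UD. The RANKL libraries were the highest, and RANKL + UD overlapped with control. Tusc3, an oxidoreductase subunit that works with Stt3b, was at 12.01, 11.9 and 12.1 FPKM in control, 13.7, 15.04 and 14.5 in RANKL and 11.5, 10.9 and 11.7 in RANKL + UD, again with RANKL on top.

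With UD, 4 of the 7 (57.1%) were lower than in RANKL and none higher, beside 20.2% and 18.6% of all tested genes. Of those calls, 2 depended on the scaling. The log2 difference was -0.31 ± 0.044 for Stt3b (adjusted p = 1.21e-05) and -0.43 ± 0.062 for Tusc3 (adjusted p = 1.23e-05), and both kept the call in all alternatives. Stt3a and Rpn1 were at -0.14 and -0.16 but, with total-count scaling, at -0.06 (adjusted p = 0.313, range over the alternatives 0.000643 to 0.313) and -0.07 (adjusted p = 0.295, range 0.0069 to 0.336). The call of Rpn1 was also lost without RANKL + UD replicate 1 (0.127) or RANKL replicate 2 (0.0665). With that scaling 2 members of the class were called lower and 2 higher.

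In ERAD, the largest class, 21 of 40 tested members (52.5%) rose with RANKL and 3 (7.5%) fell, beside 27.3% and 30.2% of all tested genes. Selenos, a selenoprotein of the export complex around VCP, had the largest rise. It was at 24.5, 24.96 and 23.1 FPKM in control, 45.6, 44.9 and 47.6 in RANKL and 45.01, 45.04 and 43.6 in RANKL + UD. The control libraries stood apart below both other groups, with a log2 difference of 1.02 ± 0.063 (adjusted p = 1.03e-11). With UD it differed from RANKL by -0.13 (adjusted p = 0.0855). Rad23b, which carries ubiquitinated proteins to the proteasome, rose by 0.77, and the ubiquitin-conjugating enzyme Ube2g1 by 0.64. Vcp, the ATPase that pulls proteins out of the membrane, rose by 0.20 ± 0.047 and was higher again with UD by 0.19 ± 0.047 (adjusted p = 0.00267). Its sequence copy Vcp-rs was higher with UD by 0.29, and reads may be divided between the 2.

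Herpud1 was called in opposite directions in the RANKL and UD comparisons. It encodes a membrane protein that organizes the HRD1 ubiquitin ligase complex and is a known target of the unfolded protein response. It was at 21.7, 25.3 and 29.1 FPKM in control, 39.5, 42.2 and 45.1 in RANKL and 27.6, 25.2 and 27.7 in RANKL + UD. The RANKL libraries were the highest, with no overlap with the others, and the RANKL + UD libraries fell within the range of control. It rose 1.77-fold with RANKL (0.82 ± 0.080 on the log2 scale, adjusted p = 1.51e-08) and was 1.67-fold lower with UD (-0.74 ± 0.080, adjusted p = 2.71e-07). The difference of RANKL + UD from control was 0.09 ± 0.082 (adjusted p = 0.402), and it was called without control replicate 3 (0.0371).

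Other parts of the HRD1 complex changed by less. Syvn1, which encodes the HRD1 ligase and overlaps Mrpl49 on the opposite strand, rose with RANKL by 0.41 ± 0.095 and differed by -0.12 with UD (adjusted p = 0.317). Sel1l, the adaptor that stabilizes the ligase, was at 27.02, 27.1 and 28.3 FPKM in control, 24.5, 24.8 and 22.7 in RANKL and 20.03, 22.3 and 20.9 in RANKL + UD. The RANKL + UD libraries were the lowest, with a difference from RANKL of -0.27 ± 0.051 (adjusted p = 0.00024). Derl1, a channel protein, was at 42.05, 42.4 and 40.7 FPKM in control, 40.3, 43.4 and 43.5 in RANKL and 35.97, 37.7 and 38.5 in RANKL + UD, with RANKL + UD again lowest, and a difference of -0.27 ± 0.050 (adjusted p = 0.000234). Neither was called in RANKL against control, at -0.11 and 0.11. Total-count scaling called Sel1l lower there, at -0.19 (adjusted p = 0.00291, range over the alternatives 0.00291 to 0.25), and Derl1 was called there without RANKL replicate 1 (0.0283).

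With UD, 9 ERAD members (22.5%) were lower than in RANKL and 4 (10%) higher, beside 20.2% and 18.6% of all tested genes, so the share of lower members was near that of all genes. Besides Herpud1, Sel1l and Derl1 the lower ones included Ubxn6, a VCP cofactor (-0.98 ± 0.139), Wfs1 (-0.76), Fbxo6, a glycan-binding ubiquitin ligase adaptor (-0.60), Atxn3 (-0.31) and Ube2g1 (-0.22). The higher ones were Yod1, a deubiquitinase (0.76 ± 0.081), Svip, an inhibitor of ERAD (0.54), Ubqln4 (0.33) and Vcp. Yod1 was at 7.98, 7.83 and 6.53 FPKM in control, 6.38, 5.57 and 5.56 in RANKL and 10.9, 10.4 and 10.2 in RANKL + UD. Its RANKL + UD libraries exceeded all others. Yod1 overlaps Pfkfb2, and Ubxn6 overlaps Chaf1a, on the opposite strand, and whether the counting used strand was not stated. Svip was lower with RANKL (-1.34), a description only, since it passed the filter through control. Its counts were 40 to 147 per library, and its rise with UD was not called in most alternatives (highest adjusted p 0.186). Wfs1 was at 26 to 114 counts per library, and total-count scaling lost its call with UD (adjusted p = 0.0744, range over the alternatives 0.0092 to 0.265). Left out singly, these libraries ended calls with UD: for Svip RANKL + UD replicate 1 (0.142), RANKL + UD replicate 2 (0.135), RANKL replicate 2 (0.11) or RANKL replicate 3 (0.186), and for Wfs1 RANKL + UD replicate 1 (0.0619), RANKL + UD replicate 2 (0.136), RANKL + UD replicate 3 (0.12), RANKL replicate 2 (0.265) or RANKL replicate 3 (0.0549). The rise of Wfs1 with RANKL, at 0.88, was lost without RANKL replicate 2 (0.125), control replicate 1 (0.0896) or control replicate 2 (0.0922). The calls of Wfs1 are descriptions only, since it passed the filter through the control and RANKL libraries. With total-count scaling, 7 ERAD members were lower with UD and 9 higher.

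**Figure D3:**
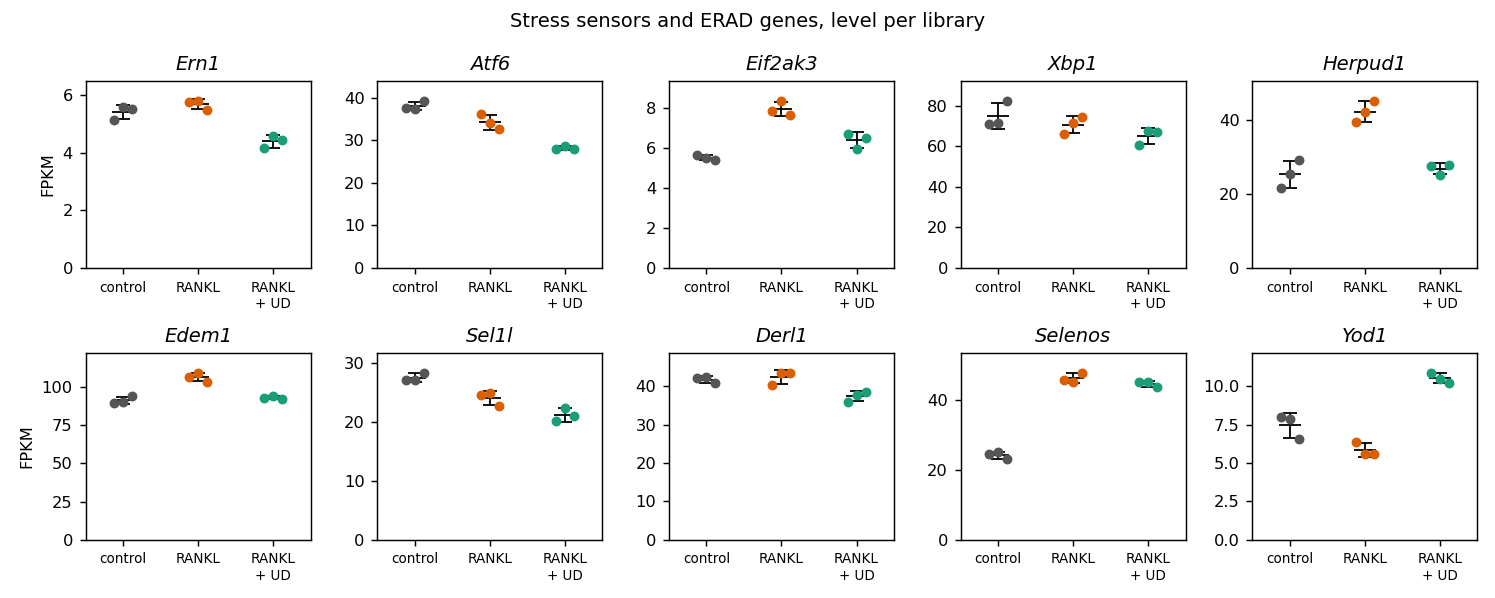
FPKM per library of 4 stress sensor genes and 6 genes of ERAD or of its glycan marking in control, RANKL and RANKL + UD; points are the 3 libraries of a group, and the bar with whiskers is the mean with its SD. Herpud1, Edem1 and Eif2ak3 peak in RANKL, Ern1, Atf6 and Sel1l are lowest in RANKL + UD, and Yod1 is highest there.

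In COPII export, 8 of 11 tested members (72.7%) rose with RANKL and 1 (9.09%) fell, beside 27.3% and 30.2% of all tested genes. In RANKL + UD against control 8 (72.7%) were higher and 2 (18.2%) lower, beside 26.7% and 27.3%. Total-count scaling left 5 higher and 2 lower with RANKL and did not alter the count in RANKL + UD against control. Sec24d, a cargo-binding coat subunit, was at 6.13, 6.18 and 6.37 FPKM in control, 10.7, 11.4 and 10.6 in RANKL and 11.03, 10.7 and 11.2 in RANKL + UD. The control libraries stood well below both other groups, with a log2 difference of 0.89 ± 0.061 (adjusted p = 6.07e-11), and UD gave -0.07 (adjusted p = 0.353). Sec23a, a coat subunit that pairs with it, was at 9.67, 9.7 and 9.58 FPKM in control, 15.2, 15.3 and 14.7 in RANKL and 12.6, 11.4 and 12.2 in RANKL + UD. It rose by 0.73 ± 0.062 and was the single member of the class called lower with UD, at -0.40 ± 0.060 (adjusted p = 1.88e-05), though Preb was also called lower without RANKL replicate 2 (0.0244). Its paralog Sec23b rose by 0.26. The outer-coat gene Sec31a rose by 0.50, and Preb, the exchange factor that starts coat assembly, fell by 0.29.

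The cytosolic chaperones of the map gave 11 rises (68.8%) and 3 falls (18.8%) with RANKL among 16 tested members, beside 27.3% and 30.2% of all tested genes. Of the falls, that of Hspa1b kept the call in all alternatives, that of the Hsp70 exchange factor Hspbp1 (-0.38) was lost without RANKL replicate 1 (0.0504) or control replicate 2 (0.0597), and that of the cochaperone Bag2 (-0.31) without RANKL replicate 2 (0.0537), RANKL replicate 3 (0.106), control replicate 2 (0.061) or control replicate 3 (0.0932), so 1 fall remained without control replicate 2. The abundant ones rose: Hsp90ab1 by 0.68, Hsp90aa1 by 0.66 and Hspa8, the constitutive Hsp70, by 0.51. Hsp90aa1 was at 177, 172 and 177 FPKM in control, 269, 257 and 259 in RANKL and 274, 284 and 277 in RANKL + UD. The control libraries were lowest, and after TMM scaling RANKL + UD differed from RANKL by 0.00 (adjusted p = 0.974). The pseudogene Gm15459, which carries the same orthology number as Hspa8, was listed at 710.2, 707 and 730.3 FPKM in RANKL, against 465, 465 and 499 for Hspa8, so the level of Hspa8 is uncertain. Gm15459 rose by 0.60. Hspa4l, an Hsp110-type exchange factor, rose by 0.86 ± 0.062, the largest rise of the class.

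With UD, 3 cytosolic members (18.8%, Hspa1l among them) were higher than in RANKL and 2 (12.5%) lower, beside 18.6% and 20.2% of all tested genes, and with total-count scaling 8 were higher and 1 lower. Hsph1, another Hsp110-type factor, was at 17.4, 18.6 and 18.5 FPKM in control, 20.3, 20.2 and 21.1 in RANKL and 29.99, 29.1 and 31.2 in RANKL + UD. The RANKL + UD libraries were the highest and overlapped with no other group. The log2 difference was 0.26 ± 0.049 with RANKL and 0.47 ± 0.049 with UD (adjusted p = 1.73e-07). Hspa1l, an Hsp70 gene of the testis, was at 0.98, 1.11 and 0.33 FPKM in control, 0.57, 0.69 and 0.91 in RANKL and 2.74, 1.66 and 2.15 in RANKL + UD. It was low in every library and highest in RANKL + UD, the group through which it passed the filter, so no test is given. It overlaps Gm10501 on the opposite strand. Hspa1b was lower with RANKL (-0.80 ± 0.195) at 47 to 100 counts per library, and it is nearly identical to Hspa1a, so reads may be divided between them. The lower genes with UD were the Hsp40 cochaperones Dnajb12 (-0.40) and Dnaja2 (-0.19). The heat shock element, searched as GAA, TTC and GAA with 2 free bases between them, was in the promoter window of 3 tested members, Hsph1, Nploc4 and Sec62, and in 0.662% of genes.

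**Figure D4:**
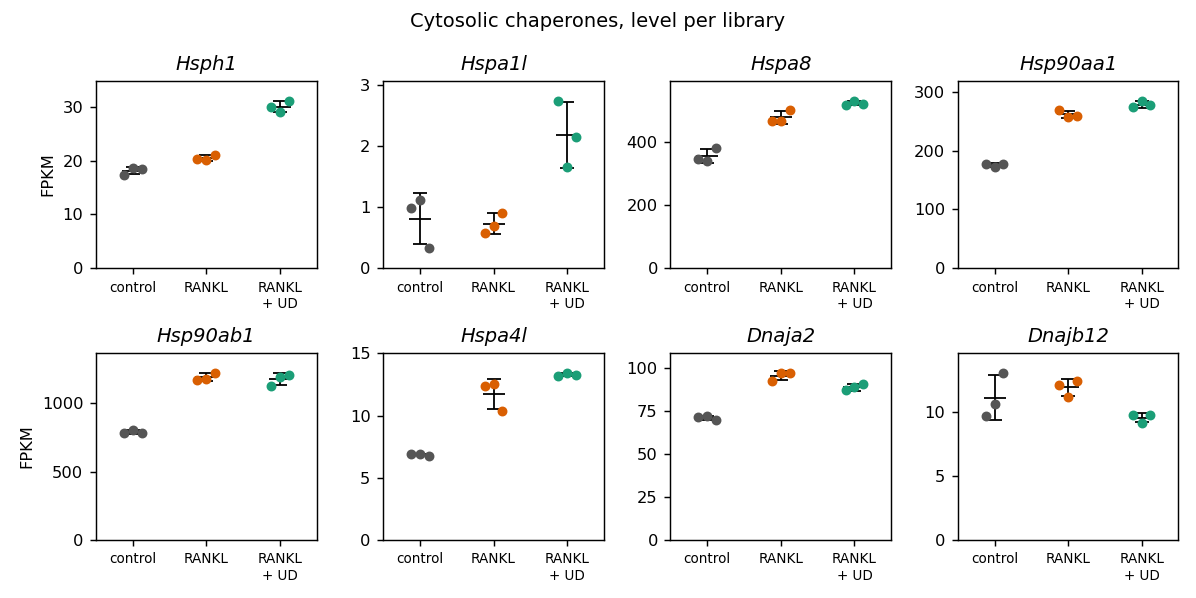
FPKM per library of 8 cytosolic chaperone genes in control, RANKL and RANKL + UD; points are the 3 libraries of a group, and the bar with whiskers is the mean with its SD. Hsp90aa1, Hsp90ab1, Hspa8 and Hspa4l rise with RANKL, and Hsph1 and Hspa1l are highest in RANKL + UD.

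Among the stress sensors and their signalling partners, rises and falls with RANKL were mixed. With RANKL, 6 of 17 tested members (35.3%) were higher and 4 (23.5%) lower, near the 27.3% and 30.2% of all tested genes. The median log2 fold change was 0.01, and with total-count scaling 5 were higher and 6 lower. DESeq2 and RLE size factors each gave 7 higher and 4 lower, and limma on log2 FPKM gave 3 higher and 6 lower. Map3k5, the stress kinase ASK1, was at 7.47, 7.73 and 8.84 FPKM in control, 3.17, 3.79 and 3.01 in RANKL and 3.24, 3.12 and 2.9 in RANKL + UD. Its control libraries were far above the rest, and it fell by 1.18 ± 0.096 (adjusted p = 9.38e-10). Nfe2l2, the oxidative stress factor NRF2, fell by 0.67 and the kinase gene Mapk9 fell by 0.47. Among the 3 sensors, only Eif2ak3 was called with RANKL. It was at 5.65, 5.51 and 5.43 FPKM in control, 7.87, 8.37 and 7.66 in RANKL and 6.73, 5.96 and 6.54 in RANKL + UD, a log2 rise of 0.61 ± 0.074 (adjusted p = 4.05e-07), while Ern1 differed by 0.16 (adjusted p = 0.0582) and Atf6 by -0.06 (adjusted p = 0.263). Total-count scaling called Atf6 lower, at -0.15 (adjusted p = 0.00983, range over the alternatives 0.00983 to 0.602).

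With UD, the genes of all 3 sensors were lower than in RANKL. Ern1 was at 5.12, 5.6 and 5.5 FPKM in control, 5.76, 5.79 and 5.49 in RANKL and 4.16, 4.58 and 4.43 in RANKL + UD. Atf6 was at 37.5, 37.3 and 39.2 FPKM in control, 36.1, 34.02 and 32.6 in RANKL and 27.9, 28.7 and 28.1 in RANKL + UD. In both, the RANKL + UD libraries were below all libraries of the other groups, and in Eif2ak3 they lay between control and RANKL. The log2 differences from RANKL were -0.46 ± 0.070 for Ern1 (adjusted p = 2.63e-05), -0.36 ± 0.048 for Atf6 (adjusted p = 3.92e-06) and -0.40 ± 0.073 for Eif2ak3 (adjusted p = 0.000193). All 3 kept the call in the 14 alternative analyses. Against control, RANKL + UD was lower for Ern1 (-0.30) and Atf6 (-0.43) and higher for Eif2ak3 (0.22), the last call being lost without RANKL + UD replicate 1 (0.0945), RANKL + UD replicate 3 (0.0612) or control replicate 2 (0.0531).

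Other members of the class that were lower with UD were Atf6b, a paralog of Atf6 (-0.35 ± 0.058), Capn2, a calpain protease (-0.38), Mbtps1, the site-1 protease that releases ATF6 (-0.26), and Xbp1. Xbp1, the transcription factor activated when IRE1 splices its RNA, was at 71.01, 71.4 and 82.4 FPKM in control, 66.1, 71.5 and 74.4 in RANKL and 60.6, 67.5 and 67.1 in RANKL + UD. The RANKL libraries overlapped with both other groups. Its difference from RANKL was -0.21 ± 0.061 (adjusted p = 0.0112), and total-count scaling gave -0.12 (adjusted p = 0.132, range over the alternatives 0.00171 to 0.23). The call was also lost without RANKL + UD replicate 1 (0.0802) or RANKL replicate 3 (0.0503). Gene-level counts do not separate the spliced from the unspliced form. In all, 7 of 17 (41.2%) were lower with UD, beside 20.2% of all tested genes. A single member (5.88%, beside 18.6% of all tested genes), Mapk9, was higher (0.18, lost without RANKL replicate 2 (0.0695)). Total-count scaling gave 6 lower and 4 higher.

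**Figure D5:**
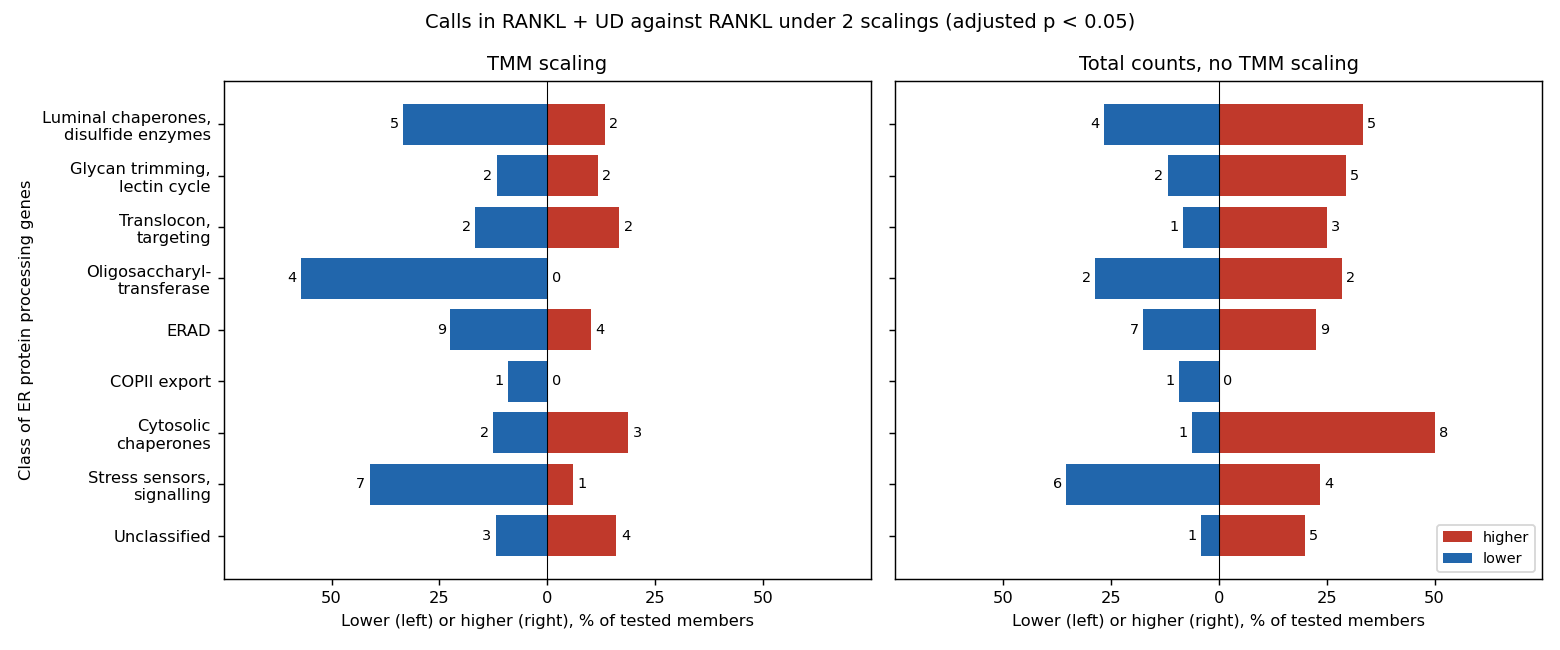
Percent of tested members of each class called lower (bars to the left) or higher (bars to the right) in RANKL + UD against RANKL, with TMM scaling (left panel) and total-count scaling (right panel); numbers beside the bars count the members. The stress sensors have 7 lower and 1 higher with TMM and 6 lower and 4 higher with total counts, and the oligosaccharyltransferase goes from 4 lower and 0 higher to 2 and 2.

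The unclassified members were mostly silent: 87 of the 142 had no counts in any library. Among the 25 tested, 4 (16%) were higher and 4 (16%) lower with RANKL, beside 27.3% and 30.2% of all tested genes. Niban1, a stress-responsive gene that the annotation places in the map, was at 33.1, 33.8 and 34.9 FPKM in control, 12.8, 13.1 and 12.8 in RANKL and 8.02, 8.9 and 7.77 in RANKL + UD. The 3 groups did not overlap, and its log2 difference was -1.31 ± 0.053 with RANKL and -0.73 from RANKL to RANKL + UD (adjusted p = 1.86e-09). Mitd1 fell by 0.84 and was higher with UD by 0.53, and 1810014B01Rik, an unprocessed pseudogene opposite Hsp90b1, was higher with UD by 0.68. Without the unclassified members the counts were 73 higher and 17 lower for RANKL against control and 14 and 32 for RANKL + UD against RANKL, of 135 tested.

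Summed over members, the luminal class summed to 1815 ± 56.6 FPKM in control, 2446 ± 30.2 in RANKL and 2413 ± 58.7 in RANKL + UD (SD, n = 3). The cytosolic chaperones summed to 1569 ± 20.5, 2218 ± 50.1 and 2290 ± 57.2 FPKM. The sum of the sensors and signalling genes went down, at 381.9 ± 14.4, 339.6 ± 8.42 and 323 ± 5.82 FPKM, though their median log2 fold change with RANKL was 0.01. Abundant genes weigh most in such sums. All members together took 2.878% ± 0.042 of the counted reads in control, 3.448% ± 0.036 in RANKL and 3.516% ± 0.051 in RANKL + UD. These sums and shares use unscaled library totals. The TMM factors were 0.959 to 0.963 in RANKL and 1.014 to 1.025 in RANKL + UD, so small differences between these groups depend on the scaling.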

How the data were processed

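Poly(A)-selected, strand-specific libraries (Illumina NovaSeq) of RAW264.7 cells were grouped by their labels into control, RANKL and RANKL + UD (3 libraries a group). The authors deposited 1 table of raw read counts and FPKM per gene. FPKM was recomputed here from the counts, gene length and library total and matched for every gene. The labels name mm10. The aligner, the counter and whether it used strand are not given in the sources used here, and the table's coordinates, which are not those of GRCm38, served only to find overlapping genes (an expressed gene lies opposite 20 of the tested classified members). Pseudogenes were identified by gene ID in GENCODE vM21. The 18 value columns were matched to the libraries by name, with the table's model columns taken as RANKL, the name the paper gives that group. If replicates were not separate cultures, p-values measure only technical spread.

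Genes with at least 1 FPKM in at least 3 libraries were tested on the deposited counts with edgeR 4.0.16 (R 4.3.3; TMM scaling, quasi-likelihood test, all 9 libraries in one fit, Benjamini-Hochberg adjustment over all 11995 genes), and the test was tried on simulated data first. Alternatives were no filter, RLE size factors, total counts, DESeq2 1.42.0 (the study's tool), limma 3.58.1 on log2(FPKM + 1) and log2(FPKM + 0.1), only the 6 libraries compared, a replicate block and leaving out each library. Total counts per library ranged from 15951800 to 19746862.

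The members, classes and lists were chosen with earlier results of these data known. Genes named in the text were a roster of central members, the 5 largest called rises and falls of each comparison and the largest of each class without overlap between groups. Other members are named to complete a class or list and were chosen after their values were seen. Promoter sequences are from RefSeq (GRCm38.p6). Values of some single genes are not reported here.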

Additional observations from a re-analysis of the deposited data

How the results depend on the processing

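Of the 6 counts of members called higher or lower, all stayed within 1.5 times their value under every alternative except the members higher in RANKL + UD than in RANKL. That count of 18 became 41 when libraries were scaled by their totals alone and 37 with limma on log2(FPKM + 1) and on log2(FPKM + 0.1). These 3 settings scale each library by its total, and RLE size factors and DESeq2, which do not, gave 17 and 16. Leaving out each library in turn gave 14 to 19 members higher and 30 to 33 lower for RANKL + UD against RANKL, 71 to 77 and 19 to 20 for RANKL against control, and 61 to 72 and 24 to 29 for RANKL + UD against control. Of 186 values of named genes, 135 kept direction and call throughout, 115 settings lost a call, 49 gained one and none reversed the direction of a call. Deviations of libraries with the same replicate number correlated at -0.030 to 0.097, and those of libraries with other numbers at -0.102 to 0.064. With 3 libraries a group these values cannot settle whether the numbers pair the libraries. With the replicate block, 78 members were higher and 21 lower for RANKL against control, and 19 and 38 for RANKL + UD against RANKL. Counting only classified members, an alternative added after the data were seen, gave 73 and 17, and 14 and 32. At 3 libraries a group an exact permutation test of a single gene cannot go below p = 0.1, so calls rest on the fit across genes. The low-count members Svip, at 40 to 147 counts per library, and Wfs1, at 26 to 114, lost calls in several settings.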

Other observations

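Genes of the ER that the pathway annotation does not hold were counted in 3 lists. Of 14 tested genes on a list for the unfolded protein response, 10 (71.4%) rose with RANKL and none fell, beside 27.3% and 30.2% of all tested genes. In RANKL + UD against RANKL 7 (50%) were lower and none higher, beside 20.2% and 18.6% of all genes. With total-count scaling the counts were 8 and 0 with RANKL, and with UD 2 were lower and 1 higher. Without RANKL + UD replicate 3, 4 were lower with UD. Dnajb9, a BiP cochaperone that restrains IRE1, averaged 10.3, 14.7 and 10.1 FPKM in control, RANKL and RANKL + UD, with log2 differences of 0.60 ± 0.1 (SE) for RANKL against control and -0.64 ± 0.1 for RANKL + UD against RANKL (edgeR adjusted p = 2.76e-05 and 3.4e-05). Manf, a secreted survival factor of the ER, rose by 0.55, and Creld1 was at 0.41 and -0.49. The list did not move as one. Manf and Creld2 were not called with UD, at -0.14 and 0.05. Kdelr1, Sdf2l1, Hspa13 and Kdelr2 were called in no comparison, with 0.03, -0.08, -0.04 and -0.04 for RANKL against control.

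Of 12 tested genes of the signal recognition particle, its receptor and the signal peptidase, which bring new proteins to the translocon and trim them, 10 (83.3%) rose with RANKL and none fell. The shares of all tested genes were 27.3% and 30.2%. Total-count scaling and limma on log2 FPKM gave 8 higher and none lower with RANKL. Leaving out RANKL replicate 3, control replicate 2 or control replicate 3 also gave 8. With UD 3 (25%) were lower, near the 20.2% of all genes, and total-count scaling, or leaving out RANKL + UD replicate 2 or 3, left 1. Spcs3 rose by 0.73, Srp72 by 0.69 and Sec11c by 0.69. The receptor gene Srpr averaged 60.3, 86.7 and 72.1 FPKM and was at 0.61 and -0.35 in the same 2 comparisons. Of 16 tested prolyl isomerases and other thiol oxidoreductases, 6 (37.5%) rose and 6 (37.5%) fell with RANKL, beside 27.3% and 30.2% of all tested genes. Fkbp11 was at 1.33, Ppic at 0.79, Fkbp14 at -1.20 and the sulfhydryl oxidase Qsox1 at -1.61, and with total-count scaling 6 rose and 8 fell. With UD 3 (18.8%) were higher, the share of all genes being 18.6%, and none lower, and 1 was higher without RANKL + UD replicate 3.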
